A study of Sus scrofa with 12 samples.

Results

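The transcripts of 10 antioxidant enzymes, SOD1, SOD2, CAT, PRDX1, PRDX2, PRDX3, PRDX4, PRDX6, TXN and GPX4, were followed in porcine oocytes through in vitro maturation. The members are given by gene name and the rule itself uses no measured value, but they were chosen with earlier results of these data known. Of these 10 genes, 9 were matched to a pig Ensembl identifier by symbol among the 31908 identifiers in each library, and TXN, the cytosolic thioredoxin, was not matched and was not analysed here. All 9 had a mean of at least 1 FPKM (fragments per kilobase of transcript, scaled to the fragments of the library) over the 12 libraries and were among the 7013 genes tested. GPX4 reached that mean only through the 0h libraries, since each of its 46h values and all but 1 of its 22h values lay under 1 FPKM, and SOD1 reached it through 0h and 22h.

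Cumulus-oocyte complexes came from antral follicles of slaughterhouse ovaries of prepubertal gilts. The maturation medium was a TCM199 base with porcine follicular fluid, EGF, PMSG and HCG. Complexes of 22h and 46h were incubated in it and those of 0h were not. Oocytes were stripped of cumulus cells with hyaluronidase at 0h (germinal vesicle, GV), 22h (pre-MI) and 46h (MII), and 4 samples of pooled oocytes were taken at each stage. The labels give hours only. The stage names follow the paper, which cites proportions from its earlier study at nearby hours, where some oocytes were not at the named stage. No scoring of the sequenced oocytes is described, so GV, pre-MI and MII stand here for 0h, 22h and 46h. No strain, genotype or treatment other than the hours of maturation in that medium separated the groups. The design text gives the middle stage as 24h and the sample labels give 22h, and 22h is used. Nothing in the labels says that the 4 samples of a stage came from separate cultures, so the p-values measure the spread between these samples. RNA was reverse transcribed from an oligo-dT primer by SMART-Seq2, so a change in the amount of an mRNA and a change in its poly(A) tail cannot be told apart, and in pooled oocytes neither can less RNA per cell and fewer cells that hold it.

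The deposited FPKM values summed to 697468 to 802184 per library, and the read depth behind them is unknown. FPKM is relative to the other transcripts of a library, and the mRNA per oocyte was not measured. Higher and lower are therefore meant relative to the library throughout, and a transcript can rise in FPKM because others fall. Log values correlated between libraries of a stage with r of 0.934 to 0.989. The 13 protein genes of the mitochondrial genome held 1.79 to 3.76% of the FPKM total in GV oocytes, 8.06 to 12.02% in pre-MI oocytes and 12.8 to 16.7% in MII oocytes, and the part of this shift in the members' changes was tested only by scaling without those genes. Of 10 oocyte markers, 9 were matched and each reached 1 FPKM in at least 1 library, though DDX4 did so in no 46h library (0.38 to 0.99 FPKM). Their summed level (FPKM) was 14155 to 20800.0 for 0h, 17946 to 26014 for 22h and 4682 to 8526 for 46h. Of 16 cumulus and granulosa cell markers, 14 were matched, 12 of these stayed under 1 FPKM in every library and 3 stood at 0 throughout. Their summed level (FPKM) was 36.6 to 85.5 for 0h, 52.1 to 82.3 for 22h and 111 to 139.9 for 46h, and VCAN and STAR were the markers that reached 1 FPKM. Of 6 matched theca, stroma and endothelium markers 4 stayed under 1 FPKM in every library, as did the 4 matched blood and immune markers. The other 2 were DCN and PECAM1, and the summed level of the 6 (FPKM) was 9.76 to 12.38 for 0h, 7.22 to 23.03 for 22h and 22.92 to 25.85 for 46h, most of it PECAM1 (7.71 to 10.86 for 0h and 20.97 to 23.61 for 46h). The part of these markers in the members' changes was not tested. Replicate 4 of 0h stood apart from the other 0h libraries in several members, and member results that moved by over 0.2 on the log2 scale without it are also given without it.

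Oocytes produce superoxide and hydrogen peroxide as by-products of respiration. Superoxide dismutases turn superoxide into hydrogen peroxide, which catalase and the peroxiredoxins then break down, and GPX4 and PRDX6 reduce peroxidised membrane lipids. A typical peroxiredoxin is oxidised at its peroxidatic cysteine by the peroxide and is reset by thioredoxin, which draws on NADPH, whereas GPX4 uses a selenocysteine and glutathione. Because transcription in the fully grown oocyte is largely silent, transcript levels during maturation are known to depend mostly on storage, polyadenylation and decay of maternal mRNA.

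The catalytic codon of each enzyme that has a cysteine or selenocysteine there is shown because it is the residue that meets the peroxide, and the bases around it show how far the paralogs resemble each other. Sequences are from RefSeq on Sscrofa11.1, the study names its genome Sscrofa11, and the deposited files hold no coordinates. Each line gives the coding strand 5′ to 3′ with the catalytic codon in capitals.
PRDX1: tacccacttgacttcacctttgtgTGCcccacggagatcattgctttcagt
PRDX2: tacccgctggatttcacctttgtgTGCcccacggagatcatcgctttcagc
PRDX3: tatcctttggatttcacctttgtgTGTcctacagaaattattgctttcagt
PRDX4: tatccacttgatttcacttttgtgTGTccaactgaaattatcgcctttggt
PRDX6: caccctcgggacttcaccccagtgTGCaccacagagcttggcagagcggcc
GPX4: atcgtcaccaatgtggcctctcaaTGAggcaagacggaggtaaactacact

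The PRDX1 stretch holds codon 52 and lies at chr6:165851424-165851474 on the plus strand. The PRDX2 stretch holds codon 51 at chr2:66208655-66208705 on the plus strand. The PRDX3 stretch holds codon 113 and crosses 1 exon junction within chr14:129086218-129087288 on the minus strand. Each stretch was cut with the catalytic codon at its centre. In the 4 typical peroxiredoxins PRDX1 to PRDX4 the cysteine codon is TGC in PRDX1 and PRDX2 and TGT in PRDX3 and PRDX4. The PRDX4 stretch holds codon 125 and crosses 1 junction within chrX:19804191-19808027 on the plus strand. In PRDX6, whose product works with a single catalytic cysteine, the stretch around codon 47 at chr9:115861505-115861555 on the plus strand is less like the others. GPX4 has TGA at codon 73, annotated as selenocysteine, at chr2:77322609-77322659 on the minus strand. Over their whole coding sequences PRDX1 and PRDX2 were 72.0% identical, with a longest shared run of 29 bases, and the other pairs among PRDX1 to PRDX4 were 58.5 to 64.8% identical with shared runs of 14 to 19 bases.

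During maturation the antioxidant transcripts did not move together. PRDX1 and PRDX2, by far the most abundant members in GV oocytes, both fell by 22h, after which PRDX1 kept falling and PRDX2 rose again. PRDX3 did not pass the test to 22h, with a change of 0.54 on the log2 scale (95% interval -0.13 to 1.21), and was then nearly lost. CAT and PRDX6 were higher in MII oocytes than in GV oocytes, and GPX4 and PRDX4 were lower, PRDX4 without passing under quantile normalization (-0.39). SOD1 was lower too, but this call was lost with median-of-ratios scaling (-0.50), under quantile normalization (0.12) and without 0h replicate 4 (-0.43).

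**Figure D1:**
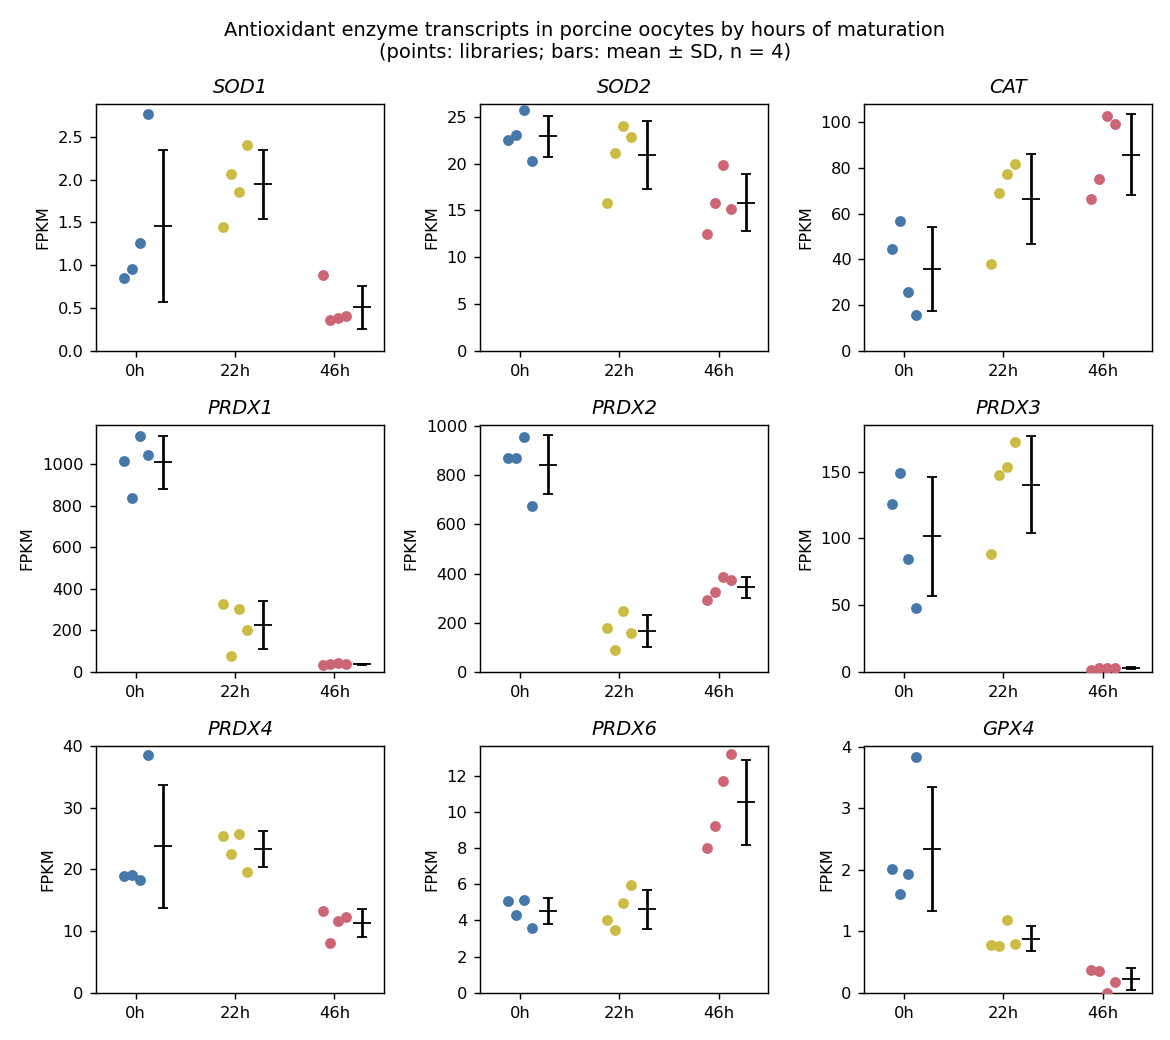
FPKM of each of the 9 members (vertical axis, linear, from 0 in each panel) at 0h, 22h and 46h, with 1 point per library and bars for the mean ± SD of 4 libraries. PRDX1 steps down at each stage to 35.2 to 41.3 FPKM, PRDX3 drops only at 46h to 1.65 to 3.20 FPKM, and CAT and PRDX6 are highest at 46h.

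Between 0h and 22h, 4 of 9 members passed the test (adjusted p under 0.05 by limma and a fold over 1.5), 1 higher and 3 lower, where 26.7% of all genes tested passed, 7.84% higher and 18.9% lower. The libraries of both stages did not overlap for 3 members and for 28.9% of all genes. The median log2 fold change was 0.01 over the members and 0.00 over all genes. Between 22h and 46h, 7 of 9 passed, 2 higher and 5 lower, against 42.4% of all genes, 9.87% higher and 32.6% lower, and the libraries of 7 members and of 48.6% of all genes did not overlap. The medians were -0.62 for the members and -0.26 for all genes. Between 0h and 46h, 8 of 9 passed, 2 higher and 6 lower, where 55.9% of all genes passed, 16.8% higher and 39.1% lower, and the libraries of 8 members and of 57.3% of all genes did not overlap. Here the medians were -0.95 and -0.25. SOD1 and GPX4 entered the fit through the stages where they are high, so that they had to differ between stages to be tested, and without them 3, 5 and 6 of 7 members passed in the 3 comparisons. The 3 comparisons share libraries with each other and are not independent.

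Whether a change differed between the intervals was tested as the contrast of the second interval minus the first, which 4 of 9 members passed by limma, against 21.0% of all genes. These were PRDX2, PRDX3, SOD1 and PRDX6. The contrast of SOD1 was lost without 22h replicate 2 (-1.23), 3 (-1.30) or 4 (-1.13), with adjusted p of 0.0554 to 0.084 by limma, and also under quantile normalization (adjusted p = 0.054) and with no filter on low values (adjusted p = 0.0864). The contrast of PRDX6 was lost without 0h replicate 1, 2 or 3 (0.97, 1.04 and 0.97), without 22h replicate 1, 2 or 3 (0.93, 0.82 and 1.09) and without 46h replicate 3 or 4 (0.97 and 0.91). It was lost as well with the replicate number as a block (adjusted p = 0.0527 by limma), in TPM (0.98, adjusted p = 0.0661), in TPM without mitochondrially encoded genes (adjusted p = 0.0621) and with no filter (adjusted p = 0.0925). That of PRDX4 did not pass (-1.03, adjusted p = 0.0852 by limma) but did so without 0h replicate 4 (-1.28, adjusted p = 0.0047).

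**Figure D2:**
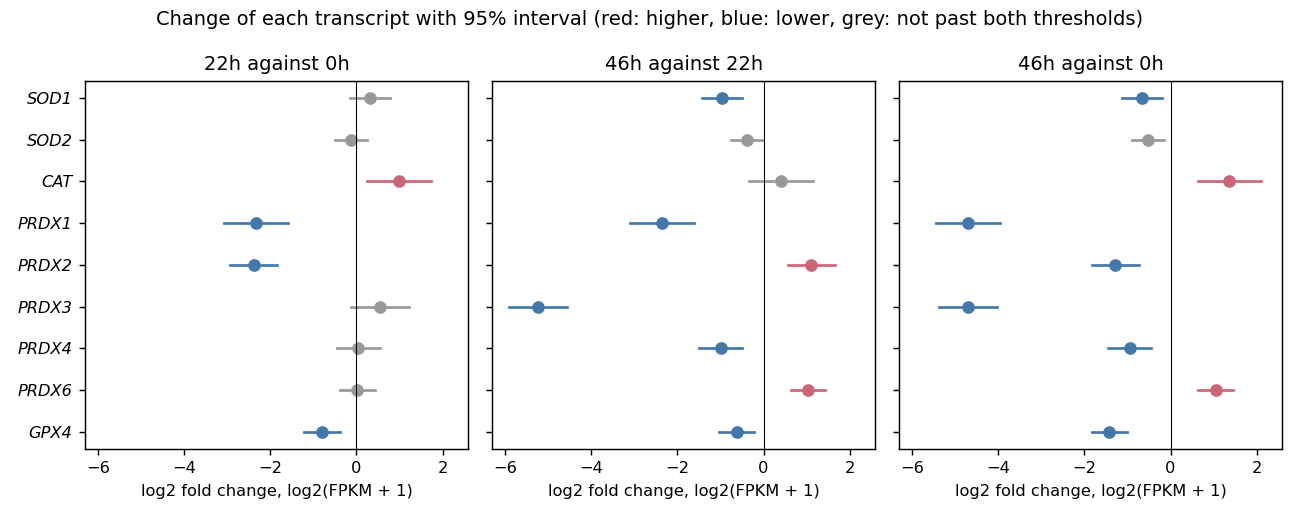
Log2 fold change of log2(FPKM + 1) for each member in the 3 comparisons (points, horizontal axis) with 95% intervals from the limma fit. Red points passed as higher, blue points as lower and grey points did not pass both thresholds, and PRDX3 at 46h against 22h lies farthest from 0, at -5.24.

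PRDX1, the abundant cytosolic and nuclear peroxiredoxin, lies on chromosome 6 (165847390 to 165859918, plus strand). At 0h the 4 libraries gave 1018, 837, 1137 and 1047 FPKM. At 22h they gave 326, 75.3, 306 and 202 FPKM, while the MII libraries gave 35.2, 37.15, 41.3 and 37.2 FPKM. Each 22h library lay below each 0h library and above each 46h library, with replicate 2 lowest at 22h, so that the stages did not overlap. The mean PRDX1 mRNA level was 1009.8 ± 126 FPKM (SD, n = 4) in GV oocytes, 227 ± 115 in pre-MI oocytes and 37.7 ± 2.56 in MII oocytes. It fell by 2.34 on the log2 scale to 22h (SE 0.347, adjusted p = 0.000234 by limma) and by 2.36 from 22h to 46h (adjusted p = 6.75e-05 by limma). The 0h mean was 26.8-fold the 46h mean, and the log2 change over the whole period was -4.70 (adjusted p = 3.25e-08 by limma). The step sizes did not pass the test of a difference between intervals (-0.02, 95% interval -1.31 to 1.27, adjusted p = 0.984 by limma).

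PRDX2, the other cytosolic 2-cysteine peroxiredoxin, lies on chromosome 2 (66207829 to 66211474, plus strand). Its mRNA stood at 869, 872, 955 and 673 FPKM in the 4 libraries of 0h. Pre-MI oocytes had 178, 88.9, 247 and 159.8 FPKM, and MII oocytes had 292, 325, 387 and 373 FPKM. The order of the stages was thus 0h, 46h, 22h, with no overlap between any of them. The level of 842 ± 119.6 FPKM at 0h fell by 2.39 on the log2 scale to 168 ± 65.1 FPKM at 22h (SE 0.252, adjusted p = 2.32e-05 by limma). From there it rose by 1.11 on the log2 scale to 344 ± 43.5 FPKM at 46h (adjusted p = 0.00237 by limma), 2.04-fold the 22h mean. MII oocytes remained lower than GV oocytes (-1.29, adjusted p = 0.000466 by limma). The difference between the intervals was 3.50 (SE 0.437, adjusted p = 5.6e-05 by limma).

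The pair PRDX2 to PRDX1 was compared within each library as the log2 ratio of FPKM + 1, where the scale of a library nearly cancels for genes far above 1 FPKM but not for SOD1, GPX4 or, at 46h, PRDX3. The ratio was -0.23, 0.06, -0.25 and -0.64 at 0h and -0.87, 0.24, -0.30 and -0.33 at 22h, and the difference of -0.05 did not pass (exact two-sided permutation test over 70 arrangements, p = 0.829). At 46h it was 3.02, 3.09, 3.20 and 3.29. Every 46h library lay above every earlier one, and the difference was 3.47 against 22h and 3.42 against 0h (exact permutation p = 0.0286 in both, the smallest that 4 against 4 libraries can give, adjusted p = 0.049 over 12 ratio tests).

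PRDX3, the peroxiredoxin of the mitochondrial matrix, lies on chromosome 14 (129079050 to 129090790, minus strand). At 0h its level was 125, 149, 84.2 and 48.2 FPKM. At 22h it was 88.4, 148, 153 and 172 FPKM, and the MII libraries were down to 1.65, 2.83, 3.08 and 3.20 FPKM. The 0h and 22h libraries overlapped and every 46h library was far below both. The mean levels of GV (102 ± 44.5 FPKM) and pre-MI oocytes (140.3 ± 36.1 FPKM) differed by 0.54 on the log2 scale, which did not pass (95% interval -0.13 to 1.21, adjusted p = 0.206 by limma) and was 0.23 without 0h replicate 4. From 22h to 46h PRDX3 fell by 5.24 to 2.69 ± 0.710 FPKM (SE 0.314, adjusted p = 8.08e-09 by limma), and the 22h mean was 52.2-fold the 46h mean. MII oocytes were lower than GV oocytes by a log2 change of -4.70 (adjusted p = 1.15e-08 by limma), or -5.01 without 0h replicate 4. The fall lay in the second interval, with a difference between intervals of -5.78 (SE 0.544, adjusted p = 4.49e-06 by limma), or -5.47 without that library.

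The within-library log2 ratio of PRDX3, the mitochondrial enzyme, to PRDX1, the cytosolic one, was -3.01, -2.49, -3.74 and -4.41 at 0h. It was -1.87, 0.96, -0.99 and -0.23 at 22h and -3.77, -3.32, -3.37 and -3.18 at 46h. All 22h libraries lay above those of both other stages, and replicate 2 was the library in which PRDX3 exceeded PRDX1. The difference was 2.88 to 22h and -2.88 from 22h to 46h (exact permutation p = 0.0286 in both, adjusted p = 0.049), and the former was 2.55 without 0h replicate 4. The 0h and 46h means were both -3.41, with a spread of 0.84 (SD) at 0h and 0.25 at 46h (exact permutation p = 1), and the difference was -0.33 without 0h replicate 4 and -0.37 with a pseudocount of 0.1.

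**Figure D3:**
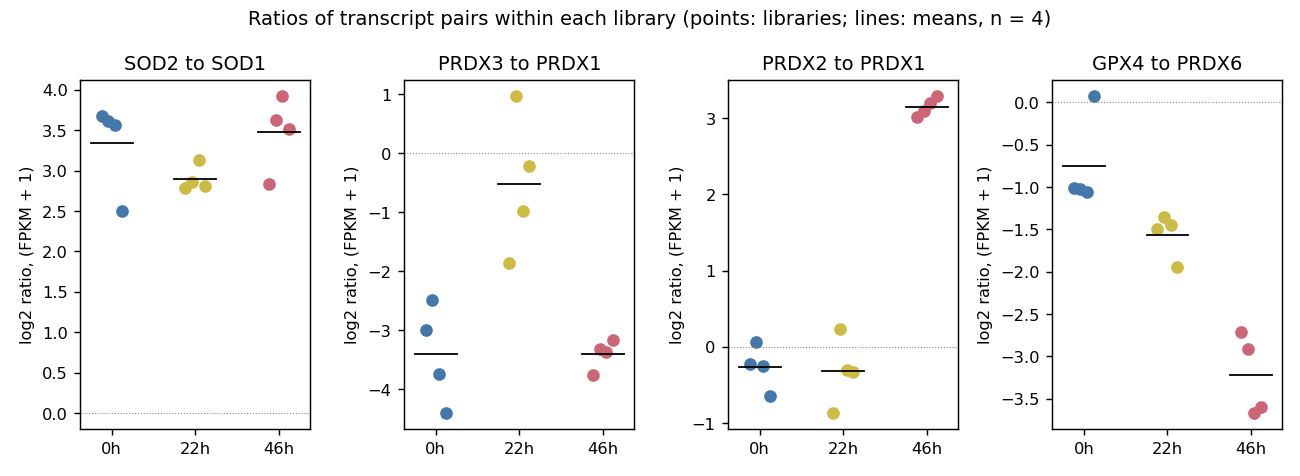
Log2 ratio of FPKM + 1 for 4 pairs of members in each library (vertical axis, 1 point per library, lines for the means of 4) at 0h, 22h and 46h. PRDX2 to PRDX1 is above 3 in all 46h libraries and at most 0.24 in the earlier ones, and PRDX3 to PRDX1 is highest at 22h.

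PRDX4, the secreted and endoplasmic reticulum peroxiredoxin, lies on chromosome X (19800153 to 19819575, plus strand). Its 0h libraries gave 18.9, 19.1, 18.3 and 38.5 FPKM. Those of 22h gave 25.4, 22.4, 25.8 and 19.6 FPKM and those of 46h gave 13.2, 8.07, 11.7 and 12.3 FPKM. Every 46h library was below every earlier one, and replicate 4 of 0h stood well above the other 0h libraries. The stage levels were 23.7 ± 9.89 FPKM, 23.3 ± 2.89 FPKM and 11.3 ± 2.26 FPKM. The change to 22h did not pass (0.04, 95% interval -0.46 to 0.54, adjusted p = 0.911 by limma) and was 0.29 without 0h replicate 4. PRDX4 then fell by 0.99 on the log2 scale (adjusted p = 0.00288 by limma), and MII oocytes were lower than GV oocytes by a log2 change of -0.95 (adjusted p = 0.00247 by limma). Without 0h replicate 4 the latter was -0.70 and passed, and both calls were lost under quantile normalization (-0.49 and -0.39).

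PRDX6, a 1-cysteine peroxiredoxin that also acts on phospholipid peroxides, lies on chromosome 9 (115857629 to 115868898, plus strand). Its mRNA stood at 5.06, 4.30, 5.12 and 3.60 FPKM at 0h. Pre-MI oocytes held 4.03, 3.50, 4.97 and 5.96 FPKM, and MII oocytes held 7.99, 9.21, 11.7 and 13.2 FPKM. The libraries of 0h and 22h overlapped, and all of 46h lay above them. The level was 4.52 ± 0.718 FPKM and 4.61 ± 1.08 FPKM before it rose by 1.03 on the log2 scale to 10.5 ± 2.35 FPKM at 46h (SE 0.190, adjusted p = 0.00046 by limma). It was 2.33-fold the 0h mean in MII oocytes (1.05, adjusted p = 0.000241 by limma). The change to 22h did not pass (0.01, 95% interval -0.39 to 0.42), and the difference between intervals was 1.02 (adjusted p = 0.041 by limma), a call lost in the settings given above.

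GPX4, the selenoenzyme that reduces lipid hydroperoxides in membranes, lies on chromosome 2 (77321568 to 77323931, minus strand). Its listed level was low, at 2.01, 1.60, 1.94 and 3.83 FPKM at 0h. The 22h libraries listed 0.78, 0.76, 1.18 and 0.80 FPKM, and those of 46h listed 0.37, 0.36, 0 and 0.17 FPKM. The stages did not overlap, and replicate 4 of 0h was the highest library. On the log2(FPKM + 1) scale, which understates the change of so low a gene, GPX4 fell by 0.79 to 22h (SE 0.193, adjusted p = 0.00672 by limma). It fell by 0.62 from 22h to 46h (adjusted p = 0.0155 by limma) and by 1.42 over the whole period (adjusted p = 1.73e-05 by limma). These are tests of a gene that reached the fit only through its high 0h level. With no filter on low values, where its level does not choose it, the adjusted p was 0.0218, 0.0467 and 0.000141 by limma in the same order. The change over the whole period ranged from -1.67 to -0.68 over 5 scalings, the smallest under quantile normalization, and was -3.07 with a pseudocount of 0.1, where the steps were -1.26 and -1.81, and -1.23 without 0h replicate 4. The change to 22h was lost with a pseudocount of 0.1 (adjusted p = 0.0572). The change from 22h to 46h was lost with median-of-ratios scaling (-0.52, under the fold threshold), under quantile normalization (0.03), without 22h replicate 3 (-0.55) and without 46h replicate 3 (-0.53).

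GPX4 and PRDX6 both act on lipid peroxides. The within-library log2 ratio of GPX4 to PRDX6 was -1.01, -1.03, -1.06 and 0.07 at 0h. It was -1.50, -1.35, -1.45 and -1.95 at 22h and -2.71, -2.91, -3.67 and -3.60 at 46h. No stage overlapped another, replicate 4 of 0h being alone above 0. The differences were -0.81, -1.66 and -2.47 for 22h against 0h, 46h against 22h and 46h against 0h (exact permutation p = 0.0286, adjusted p = 0.049 in each). Without 0h replicate 4 the first was -0.53 and the last -2.19, and with a pseudocount of 0.1 they were -1.28, -2.98 and -4.25. With GPX4 at 0 to 1.18 FPKM at 22h and 46h, the added 1 makes up much of its side of the ratio there, and the difference of -1.66 between these stages is made up of -0.62 in GPX4 and 1.03 in PRDX6. These tests are therefore no separate evidence of a change in GPX4.

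CAT, the peroxisomal catalase, lies on chromosome 2 (26493665 to 26533881, minus strand). At 0h the libraries gave 44.7, 56.6, 25.6 and 15.9 FPKM. Those of 22h gave 38.1, 69.1, 77.1 and 81.6 FPKM and those of 46h gave 66.3, 75.1, 102 and 99.1 FPKM. Each 46h library was above each 0h library, while 22h overlapped both. The mean CAT mRNA level was 35.7 ± 18.4, 66.5 ± 19.6 and 85.8 ± 17.8 FPKM in GV, pre-MI and MII oocytes. It rose by 1.37 on the log2 scale from 0h to 46h (SE 0.345, adjusted p = 0.00306 by limma), 2.40-fold the 0h mean, and by 1.05 without 0h replicate 4 (adjusted p = 0.00682). The rise to 22h was 0.98 (adjusted p = 0.0442 by limma) but was lost in 14 of 22 alternatives, among them leaving out 0h replicate 4 (0.65, adjusted p = 0.0973) or 0h replicate 3 (0.87, adjusted p = 0.111). It was lost as well without 22h replicate 2, 3 or 4 (0.94, 0.89 and 0.86), without any one 46h library (adjusted p of 0.0523 to 0.0574), and with the replicate number as a block (adjusted p = 0.071). The step from 22h to 46h did not pass (0.40, 95% interval -0.34 to 1.14). That step was 0.15 without 22h replicate 1 and 0.71 with median-of-ratios scaling, and passed in neither. The difference between intervals did not pass for CAT (-0.58, adjusted p = 0.532 by limma) and was -0.26 without 0h replicate 4.

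SOD1, the cytosolic copper-zinc dismutase, lies on chromosome 13 (195326573 to 195335273, plus strand). Its identifier was listed at 0.85, 0.96, 1.26 and 2.76 FPKM at 0h. The 22h libraries listed 1.45, 2.06, 1.86 and 2.40 FPKM, and those of 46h listed 0.89, 0.36, 0.38 and 0.41 FPKM. The 46h libraries lay below all of 22h but replicate 1 overlapped the lowest 0h library, and replicate 4 of 0h was the highest value. RefSeq records 2 frameshifts between the SOD1 transcript and this genome, and the part of this in the low listed level was not tested. The level fell by 0.97 on the log2 scale from 22h to 46h (adjusted p = 0.00207 by limma), and 46h was lower than 0h by a log2 change of -0.66 (adjusted p = 0.016 by limma). Without 0h replicate 4 the latter was -0.43, under the fold threshold, as was the value with median-of-ratios scaling (-0.50), and it was 0.12 under quantile normalization. The added 1 understates the change of so low a gene, and with a pseudocount of 0.1 the log2 changes were -1.80 from 22h to 46h and -1.28 from 0h to 46h (adjusted p = 0.00114 and 0.00806 by limma). The call from 22h to 46h was lost under quantile normalization (-0.40). The change to 22h did not pass (0.31, 95% interval -0.15 to 0.77), and without 0h replicate 4 it was 0.54 (adjusted p = 0.0222 by limma), under the fold threshold. With no filter on low values the fall from 22h had an adjusted p of 0.00986 by limma. The difference between intervals was -1.28 among the 7013 genes of the fit (adjusted p = 0.0255 by limma), it did not pass with no filter (adjusted p = 0.0864), and it was -1.50 without 0h replicate 4 and -2.32 with a pseudocount of 0.1.

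SOD2, the manganese dismutase of the mitochondrial matrix, lies on chromosome 1 (7679352 to 7689564, plus strand). Among the members it had the smallest ratio of highest to lowest stage mean (1.45). It stood at 22.6, 23.0, 25.7 and 20.3 FPKM at 0h. Pre-MI oocytes held 15.8, 21.1, 24.0 and 22.8 FPKM, and MII oocytes held 12.5, 15.8, 19.9 and 15.1 FPKM. Neighbouring stages overlapped, and all 46h libraries lay below the lowest 0h library. The level was 22.9 ± 2.23 FPKM, 20.9 ± 3.61 FPKM and 15.8 ± 3.04 FPKM. The log2 change from 0h to 46h was -0.52 (95% interval -0.90 to -0.14, adjusted p = 0.0185 by limma), which did not reach the fold threshold. It reached it with TPM scaling (-0.63) and without 46h replicate 3 (-0.63). With median-of-ratios scaling the change was -0.21, and under quantile normalization it was 0.05. The other steps did not pass (-0.13, 95% interval -0.51 to 0.24, to 22h, and -0.38, 95% interval -0.76 to -0.01, from 22h to 46h).

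The within-library log2 ratio of SOD2 to SOD1 was 3.67, 3.61, 3.56 and 2.50 at 0h. It was 2.78, 2.86, 3.13 and 2.81 at 22h and 2.84, 3.63, 3.92 and 3.52 at 46h. The stages overlapped, and no difference passed, the exact permutation p being 0.143, 0.0857 and 0.657 for 22h against 0h, 46h against 22h and 46h against 0h. Without 0h replicate 4 the first difference was -0.72 and the last -0.14, and with a pseudocount of 0.1 that of 46h against 22h was 1.40 (exact permutation p = 0.0286 before adjustment).

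FPKM is per length, and levels are set side by side between genes on that basis. The place of SOD1 in the order is uncertain, since the part of its frameshifts in its low listed level was not tested. At 0h the order of mean levels was PRDX1, PRDX2, PRDX3, CAT, PRDX4, SOD2, PRDX6, GPX4 and SOD1, and the gaps between PRDX2 and PRDX3 and between SOD2 and PRDX6 were the ones across which libraries did not overlap. At 22h PRDX1, PRDX2 and PRDX3 led with overlapping libraries, CAT followed apart from both neighbours, PRDX4 and SOD2 overlapped, and PRDX6, SOD1 and GPX4 came last without overlap. At 46h PRDX2, CAT and PRDX1 stood apart in that order, SOD2 overlapped PRDX4 and PRDX4 overlapped PRDX6, PRDX3 stood at place 7 where it had been at place 3, and SOD1 and GPX4 overlapped at the bottom.

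The summed level of the 9 members was 2044 ± 175 FPKM in GV oocytes (range 1853 to 2255), 654 ± 169 in pre-MI oocytes (431 to 841) and 509 ± 68.4 in MII oocytes (431 to 577). This was 0.278%, 0.0884% and 0.0641% of the library total. PRDX1 and PRDX2 together made 90.6 ± 2.79% of that sum at 0h, 58.1 ± 15.7% at 22h and 75.2 ± 1.24% at 46h. PRDX1 alone went from 49.5% to 33.0% and 7.47%, while PRDX2 went from 41.1% to 25.1% and 67.7%. PRDX3 rose from 4.97% to 22.8% of the sum and then made 0.523%. CAT made 1.75%, 10.8% and 16.7%. Library 22h replicate 2 had the lowest PRDX1 and PRDX2 shares of its stage (17.5% and 20.6%) and the highest PRDX3 share (34.3%). These shares are a description of composition, and a share rises where other members fall.

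**Figure D4:**
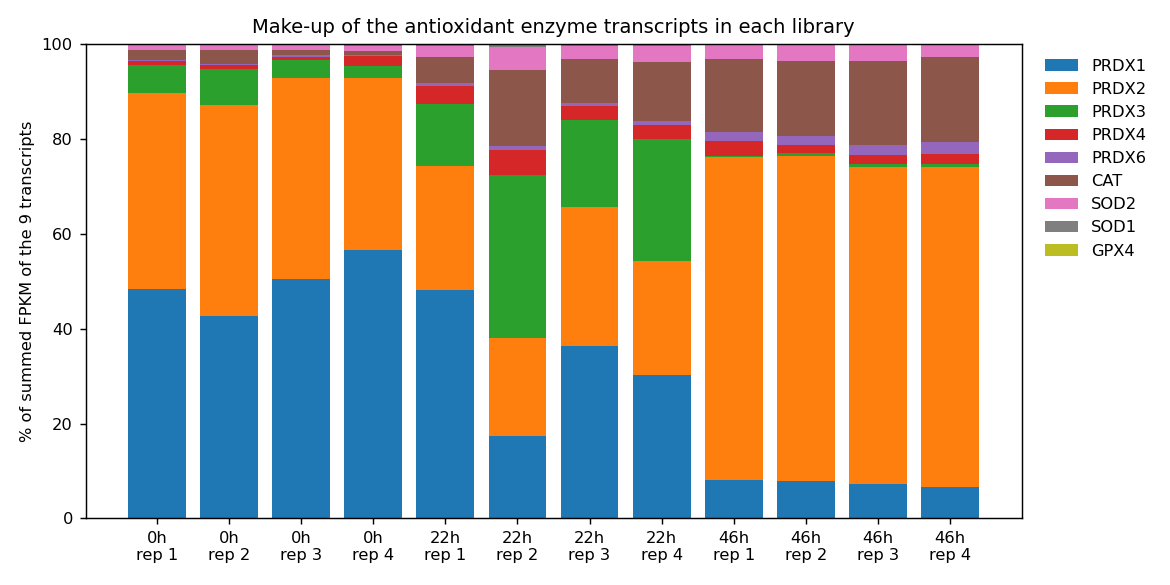
Share of the summed FPKM of the 9 members held by each of them (vertical axis, %) in each of the 12 libraries, as stacked bars. PRDX1 and PRDX2 fill 87.1 to 92.8% of the bar at 0h, PRDX3 widens at 22h, and PRDX2 alone fills 67.0 to 68.6% at 46h.

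Of the 9 members, 7 kept their direction at 46h against 0h under 5 ways of scaling the libraries. At 46h against 0h the median log2 change of all genes was -0.25 in FPKM as deposited and -0.35 in TPM. It was -0.20 in TPM once the mitochondrially encoded genes were taken out, 0.00 after median-of-ratios scaling and 0.37 after quantile normalization. The share of higher genes among those called moved with it, from 30.1% in FPKM to 25.6%, 33.9%, 44.1% and 61.7% in the same order. For 46h against 22h that share was 23.3% in FPKM, 17.2% in TPM, 42.2% by median-of-ratios and 59.5% by quantile normalization. For 22h against 0h it was 29.4% in FPKM, 39.5% in TPM leaving out mitochondrially encoded genes and 48.2% by quantile normalization. PRDX1, PRDX2 and PRDX3 stayed lower and CAT and PRDX6 higher at 46h than at 0h under all 5, with PRDX1 between -4.81 and -4.38, PRDX3 between -4.89 and -4.10, PRDX2 between -1.39 and -0.96, CAT between 1.28 and 1.85 and PRDX6 between 0.99 and 1.69. GPX4 and PRDX4 were lower under all 5 as well, GPX4 between -1.67 and -0.68 and PRDX4 between -1.07 and -0.39, where it no longer passed. SOD1 and SOD2 were the members whose direction turned, at 0.12 and 0.05 under quantile normalization.

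**Figure D5:**
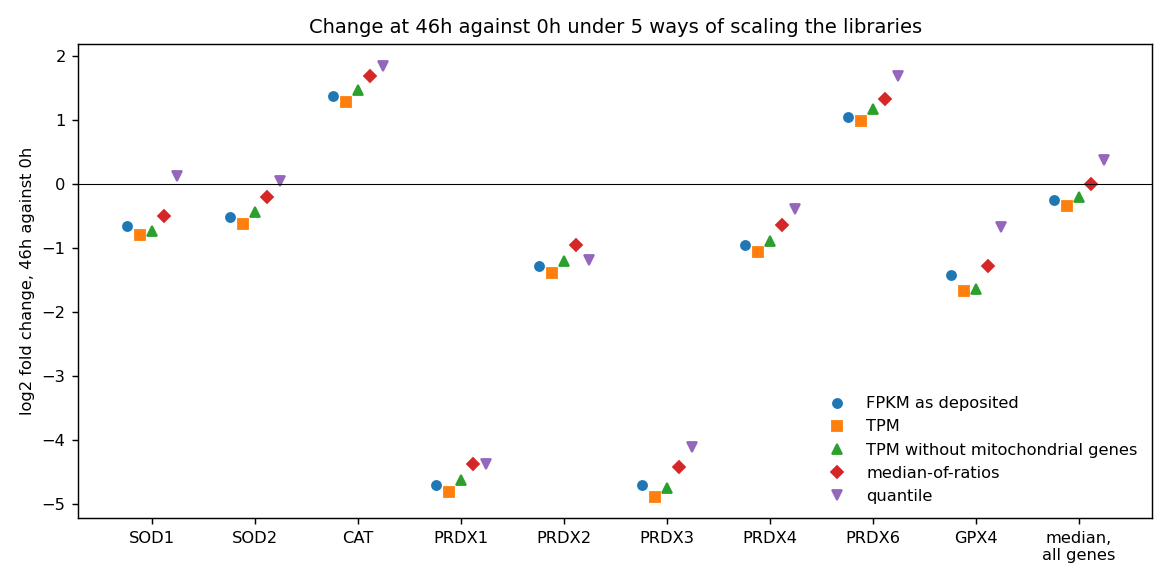
Log2 fold change at 46h against 0h (vertical axis) of each member and the median of all genes under 5 scalings of the libraries, 1 marker shape per scaling. Scaling moves the median of all genes from -0.35 to 0.37, and PRDX1 and PRDX3 stay at or below -4.10 throughout.

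For each member, the genes whose log2(FPKM + 1) followed it most closely over the 12 libraries were looked up among 6112 named genes. These correlations describe a stage pattern that many transcripts share and carry no test. PRDX1 was followed most closely by ALAD (r = 0.997) and MED8 (r = 0.995), and MED8 mRNA stood at 144, 23.9 and 2.51 FPKM at 0h, 22h and 46h. PRDX3 was followed by CCNB2 (r = 0.996) and SNX3 (r = 0.995), and CCNB2, which encodes cyclin B2, stood at 435, 458 and 24.7 FPKM. CAT ran with METTL6 (r = 0.970) and NUP42 (r = 0.965), and METTL6 stood at 228, 395 and 458 FPKM. The closest to PRDX2 were SLC8A1 (r = 0.966) and SYCE2 (r = 0.954), with SYCE2 at 62.7, 22.1 and 39.9 FPKM. GPX4 went with HSP90AA1 (r = 0.980) and CARS2 (r = 0.977), PRDX4 with LRMDA (r = 0.976) and TRIM44 (r = 0.963), and PRDX6 with ICA1 (r = 0.953) and LIPA (r = 0.948). SOD2 went with RAD52 (r = 0.931) and GSS (r = 0.927), and SOD1 with RPL26L1 (r = 0.923) and GOLM1 (r = 0.917).

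Near the 3′ end of mRNA, the letters TTTTAT and TTTTAAT are those of the cytoplasmic polyadenylation element, and AATAAA and ATTAAA those of the nuclear polyadenylation signal. They were searched on the transcript strand in the last 100 bases of RefSeq transcripts of Sscrofa11.1 whose 3′ untranslated region has at least that length, which 8 members have and PRDX4 and TXN have not. TTTTAT or TTTTAAT was in 0 of 8 members, in 17.3% of 16263 genes and in 23.2% of 5079 genes in the fit, and no match says only that these letters are not in this window. AATAAA or ATTAAA was in 8 of 8, against 69.8% and 78.2%. The sites of the peroxiredoxins that fell most and of the 2 risers are shown with the signal in capitals, so that their ends can be compared.
PRDX1: ttgtagttcctATTAAAcctgaactgag
PRDX3: atatgataaaaAATAAAcatatttaaac
CAT: tacatttttacAATAAAataatctgcac
PRDX6: aggaatcagcaAATAAAccctttgttaa

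The PRDX1 site lies at chr6:165859890-165859917 and the PRDX6 site at chr9:115868861-115868888, both on the plus strand. The PRDX3 site lies at chr14:129079053-129079080 and the CAT site at chr2:26493674-26493701, both on the minus strand. ATTAAA, the less common form, was found in PRDX1 and SOD1, and the other 6 members with a window long enough had AATAAA.

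The enzymes around these members were read from pathway lists and are given for 46h against 0h, where 16.8% of all genes were higher and 39.1% lower. Listed genes whose 46h mean lay below 1 FPKM, such as TXN2 and NXN, reached the mean filter through earlier stages. The counts and medians of the lists include them. In the thioredoxin system, which resets the typical peroxiredoxins, 4 of 8 genes tested were lower and none higher, with a median of -1.07 beside -0.25 over all genes. TXN2 (0.23 FPKM at 46h) and NXN (0.1625 FPKM) are among these 4 and had to differ between stages to be tested. The count and median therefore do not show a fall of the system. PRDX5, the remaining peroxiredoxin, went from 29.6 ± 13.5 to 4.38 ± 2.44 FPKM (-2.52, adjusted p = 1.01e-05 by limma). NXN, a thioredoxin-like oxidoreductase, changed by -2.39 and TXN2, the mitochondrial thioredoxin that serves PRDX3, by -2.05, whereas TXNRD1, the cytosolic thioredoxin reductase, was at 9.84 and 10.1 FPKM (0.08, adjusted p = 0.756 by limma) and is named here after its value was seen. For NADPH, which feeds both systems, 1 of 10 genes was higher and 2 lower, with a median of -0.03. IDH2, a mitochondrial source of NADPH, went from 16.2 to 0.897 FPKM (-3.12), and ME1, the cytosolic malic enzyme, changed by -0.66. The higher gene was ME2, a mitochondrial malic enzyme that works mainly with NAD rather than NADP, which rose from 336 to 674 FPKM (1.12), and of the 9 genes without it none was higher.

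In glutathione synthesis and recycling, which serves GPX4, 1 of 10 genes was higher and 4 lower, with a median of 0.02. The named genes GLRX3, a glutaredoxin, CHAC1, which degrades glutathione, and GCLC, the catalytic subunit of glutamate-cysteine ligase, changed by -3.12, -1.48 and -0.87. The higher gene was SLC7A11, the cystine transporter, from 8.56 to 16.2 FPKM (0.84), named here after its value was seen. Of other glutathione peroxidases, 2 were tested and neither passed. Of glutathione S-transferases 4 of 6 were lower (median -0.76). GSTM3 went from 642 ± 156 to 33.3 ± 6.41 FPKM (-4.21, adjusted p = 4.43e-10 by limma), GSTK1 changed by -2.69 and MGST2 by -0.82, and with a pseudocount of 0.1 GSTK1 had the larger change of the first pair (-4.96 against -4.25).

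For the selenocysteine that GPX4 carries, 1 of 4 synthesis genes was higher and 1 lower (median 0.23). SECISBP2, which binds the selenocysteine insertion element, rose from 26.8 to 63.5 FPKM (1.21, adjusted p = 1.42e-05 by limma), and PSTK, the kinase that prepares its tRNA, changed by -1.74. Of other selenoproteins, 2 of 4 were lower (median -1.60). SELENOS went from 132 to 0.883 FPKM (-6.14, adjusted p = 7.75e-10 by limma) and SELENOF from 163 to 17.3 FPKM (-3.13). Of the genes of lipid peroxidation and iron, 3 of 5 were lower and none higher (median -0.81), namely GCH1, which makes tetrahydrobiopterin (-2.77), LPCAT3, which puts polyunsaturated chains into phospholipids (-1.22), and FTL, the ferritin light chain (-0.81).

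Beside the dismutases, CCS, the copper chaperone of SOD1, was the gene of its list that could be tested and went from 4.75 ± 0.774 to 0.988 ± 0.432 FPKM (-1.54, adjusted p = 0.000212 by limma). For the import machinery that brings CAT into peroxisomes, 2 of 8 genes were higher and 2 lower (median 0.31), with PEX3 at 1.12 and PEX5, the import receptor, at -0.93. In the NRF2 axis, the transcriptional control of antioxidant genes, 1 of 4 was higher and 2 lower (median -0.51). NFE2L2, which encodes NRF2, rose from 54.9 to 105 FPKM (0.96), while CUL3, part of the ligase that removes NRF2, changed by -1.36 and HMOX2, a heme oxygenase, by -1.15. MSRB2, a methionine sulfoxide reductase, changed by -1.50.

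Some of these calls at 46h against 0h depended on the setting, and the added 1 understates the changes of genes that end below 1 FPKM. With a pseudocount of 0.1 the log2 changes were -4.30 for NXN, -3.87 for TXN2, -2.66 for MSRB2, -1.94 for HMOX2, -1.90 for MGST2 and -1.83 for PEX5, each over 1.5 times the value above. MGST2 was lost in 7 settings, among them without 0h replicate 1 (-0.82) or 2 (-0.76) and without 46h replicate 3 (-0.63) or 4 (-0.67). ME1 was lost without 0h replicate 4 (-0.56) or 46h replicate 2 (-0.58), and with median-of-ratios scaling (-0.35) and quantile normalization (-0.10). GCLC was lost with both scalings (-0.55 and -0.33) and FTL with median-of-ratios scaling (-0.48), while quantile normalization ended the calls of HMOX2 (-0.44), LPCAT3 (-0.54) and PEX5 (-0.15).

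The same lists were read by interval, where 7.84% of all genes were higher and 18.9% lower to 22h, and 9.87% higher and 32.6% lower from 22h to 46h. The thioredoxin system had 2 of 8 genes lower to 22h and 4 of 8 lower from 22h to 46h, with none higher in either. TXN2 and NXN, which reached the filter through earlier stages, were the 2 lower to 22h and were also among the 4. Glutathione synthesis and recycling had 2 of 10 lower to 22h, then 2 higher and 4 lower. Of the glutathione S-transferases 2 of 6 were lower in each interval, and CCS was lower to 22h (-1.31) but did not pass afterwards (-0.23). Of the selenoprotein synthesis genes 1 of 4 was higher and 1 lower in each interval, and of other selenoproteins 1 of 4 and then 2 of 4 were lower. The NADPH list had 1 of 10 lower to 22h, then 3 higher (2 without ME2) and 1 lower. The peroxisome import list had 1 of 8 higher to 22h, then 2 higher and 2 lower, and the NRF2 axis had none of 4 and then 1 higher and 1 lower. For lipid peroxidation and iron, 3 of 5 were lower to 22h and 1 of 5 afterwards, and MSRB2 was lower in both intervals (-0.59 and -0.91).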

How the data were processed

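The authors prepared SMART-Seq2 libraries of pooled porcine oocytes, trimmed reads with Trim Galore, aligned them with STAR to Sscrofa11 and computed FPKM with RSEM. The deposited values are FPKM per Ensembl gene identifier, with 2 decimals, and were used as they are. The annotation release is not given in the sources used here, and the HTSeq counts were not used here. Of 31908 identifiers 15029 had a symbol. Without counts, the spread over 4 libraries is the measure of precision.

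The 7013 genes whose mean reached 1 FPKM were fitted as log2(FPKM + 1) with limma 3.58.1 (lmFit, eBayes with trend) in R 4.3.3 over all 12 libraries, with stage as the only factor. Tests were two-sided, adjusted by Benjamini-Hochberg over all genes tested, and called at an adjusted p under 0.05 and a fold over 1.5 (adjusted p alone for the difference between intervals). Within-library ratios were compared by exact permutation tests, adjusted over 12. In data simulated for 46h against 0h over 7013 genes, 72 of 100 genes changed by 1 on the log2 scale and 97 of 100 changed by 2 were called, none in the wrong direction, with 5 of 6813 unchanged genes called. The simulated noise was normal and independent between genes, and no other genes were changed. In the data 55.9% of genes were called for this comparison, so these rates check the code and do not carry over to the data.

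Named genes were all members, in each pathway list the 3 called genes with the largest absolute change at 46h against 0h, and the 2 named genes most like each member by Pearson r. One gene that this rule names is not reported here. The members and lists were chosen with earlier results of these data known. Alternatives covered the pseudocount, the filter, scaling, the samples in the fit, the trend, the fold threshold, a replicate block and leaving out each library. Sequences were read from RefSeq Sscrofa11.1 with biopython 1.88.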

Additional observations from a re-analysis of the deposited data

Results flagged for a closer look

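In 27 groups of 4 libraries (9 members at 3 stages), the gap between an extreme library and its nearest neighbour was set against the range of the group, and 3 groups passed Dixon's 95% critical value, where chance gives about 1 in 20. PRDX4 in 0h replicate 4 stood at 38.53 FPKM, with the other 0h libraries at 18.3 to 19.15 FPKM (gap over range 0.940). SOD1 in 46h replicate 1 stood at 0.89 FPKM, with the others at 0.36 to 0.41 FPKM (0.890). GPX4 in 22h replicate 3 stood at 1.18 FPKM, with the others at 0.76 to 0.80 FPKM (0.895). SOD1 and GPX4 are near 1 FPKM, where the counting error behind a value is unknown. The cause of these values was not tested.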

How the results depend on the processing

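Under every alternative in which they were tested, PRDX1 and PRDX2 kept their direction and call in all 3 comparisons, PRDX3 and PRDX6 did so for 46h against 22h and against 0h, and CAT and GPX4 for 46h against 0h. Requiring a fold over 2 left 2 members called for 22h against 0h and 4 for 46h against 22h, with 871 and 1736 of all genes called, and quantile normalization left 4 members for 46h against 22h but raised all genes called from 2975 to 3311. A minimum mean of 5 FPKM left 2546 genes called for 46h against 0h, fewer genes being tested. The count of members whose intervals differed was 2 with no filter on low values and 2 to 5 when 1 library was left out (2 without 22h replicate 2 or 3). Leaving out 1 library moved the change to 22h of PRDX4 between -0.055 and 0.29 and of PRDX6 between -0.10 and 0.11, neither of which passed. Quantile normalization turned SOD2 (0.0821) and GPX4 (0.025) for 46h against 22h, and SOD1 (0.12) and SOD2 (0.0465) for 46h against 0h. The difference between intervals, not called in these members, turned for GPX4 with a pseudocount of 0.1 (-0.54), and for SOD2 and PRDX1 with median-of-ratios scaling (0.0491 and 0.29) and quantile normalization (0.12 and 0.25). Leaving out 1 library moved it between -0.94 and 0.46 for PRDX1 and between -0.0208 and 0.32 for GPX4. The ratio SOD2 to SOD1 for 46h against 0h was -0.07 with quantile normalization, and PRDX3 to PRDX1 was -0.37 with a pseudocount of 0.1. The cause of these shifts was not tested. Replicate numbers did not pair the samples: the deviations of 12 same-numbered pairs correlated with -0.466 to 0.381, 3 over 0.1, and 2 of 12 libraries correlated best with their own number. With the replicate number as a block, 3, 7 and 8 members were called for 22h against 0h, 46h against 22h and 46h against 0h, with 1801, 2933 and 3894 of all genes, and 3 members differed between intervals. With 4 libraries a stage and no counts, changes of SOD1 and GPX4 near 1 FPKM remain uncertain, since the counting error behind them is unknown.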
